A study of Arabidopsis with 36 samples.

Results

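The 7 genes described here encode lipid transfer proteins (LTPs) of Arabidopsis thaliana: LTP1 (AT2G38540), LTP2 (AT2G38530), LTP3 (AT5G59320), LTP4 (AT5G59310), LTP5 (AT3G51600), LTP6 (AT3G08770) and LTP12 (AT3G51590). They were taken by gene identifier from a matrix of 24532 genes. LTP3 was chosen by its measured RPKM in the Col-0 and hy5-215 roots, where its temperature response differed between the genotypes, and the other 6 were added by their family name. Those values of LTP3 are therefore given as a description with no test. LTP1 and LTP2 lie next to each other on chromosome 2, LTP3 and LTP4 on chromosome 5, and LTP5 and LTP12 on chromosome 3, where LTP6 also lies apart from that pair (RefSeq annotation of TAIR10.1).

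Plant non-specific LTPs are small secreted proteins whose conserved cysteines pair into disulfide bonds and hold open a hydrophobic cavity that binds fatty acids and other lipids. They are found in the cell wall and at the plant surface, and are linked to the building of cutin, wax and suberin, the lipid barriers of shoot epidermis and root. LTP1 is best known from epidermal cells, LTP2 from the contact of cuticle and cell wall, LTP3 and LTP4 from responses to abscisic acid (ABA), drought and cold, LTP5 from pollen tubes and LTP12 from the tapetum of the anther. HY5 is a light-signalling transcription factor of the bZIP class, and NRT1.1 is a nitrate transporter and nitrate sensor of the plasma membrane.

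RNA was sequenced from roots and shoots of 3 genotypes: Col-0, the wild type, hy5-215, a mutant of HY5, and chl1.5, a mutant of NRT1.1 (written chl1-5 elsewhere). All seedlings grew on agar for 4 days at 21 °C and then for 5 days at 21 or 28 °C, in long days. Each of the 12 groups of genotype, organ and temperature held 3 libraries, 36 in all, and a root library was made from a pool of about 50 roots. Levels are RPKM, read numbers divided by gene length and by library size. The length is that of the gene in the annotation rather than of a transcript, so levels of different genes compare only roughly.

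The libraries held 51838841 to 89335791 reads each, with a median of 72340102 reads in roots and 72475832 reads in shoots. HY5 itself was at 6.34 to 8.30 RPKM in the 6 hy5-215 root libraries and at 24.1 to 50.3 RPKM in the 6 Col-0 root libraries, whereas in shoots at 21 °C it was at 5.49 to 5.96 RPKM in hy5-215 and 4.67 to 4.99 RPKM in Col-0, and in shoots at 28 °C at 4.76 to 5.68 RPKM and 7.93 to 8.25 RPKM. NRT1.1 had 0 to 4 reads per library in the chl1.5 roots, but stood at 13 to 19.4 RPKM in the 6 shoot libraries that carry the chl1.5 label. The shoot libraries labelled chl1.5 therefore go against their label, and every direction drawn from them below is that of the label only. All 12 shoot markers used to check the organ had reads in every root group. Their summed level in Col-0 roots was 85.1 to 134 RPKM at 21 °C and 401 to 575 RPKM at 28 °C, in chl1.5 roots 59.2 to 76.3 and 294 to 392 RPKM, and in hy5-215 roots 13.9 to 23.4 and 13.3 to 31.5 RPKM, against 48048 to 68298 RPKM in shoots.

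In Col-0 at 21 °C, roots and shoots differed in the leading member of the family, LTP2 in roots and LTP1 in shoots. LTP2 itself was also higher in shoots, at a mean of 58.8 RPKM against 30.01 RPKM in roots. LTP1 was the main LTP of the shoot, at 991, 988 and 959 RPKM in the 3 libraries, and LTP5 followed at 176, 177 and 177 RPKM. In roots of this genotype and temperature LTP1 was at 10.4, 12.5 and 15.6 RPKM and LTP5 at 1.63, 1.51 and 1.33 RPKM. Both genes were thus far higher in every shoot library than in any root library, and the mean root level was 1.31% of the shoot level for LTP1 and 0.844% for LTP5. The reverse order held for LTP3, which was at 20.1, 21.102 and 29.6 RPKM in roots and at 6.02, 6.66 and 5.94 RPKM in shoots.

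A share of the summed family level, which rests on the gene lengths used, shows the same organ pattern. LTP1 made up 76.2% of the summed mean RPKM of the 7 genes in Col-0 shoots at 21 °C, and LTP5 a further 13.7%. In Col-0 roots at 21 °C LTP2 made up 41.3%, LTP3 32.5% and LTP1 17.7%. The whole family summed to 60.9 to 90.6 RPKM in these root libraries and to 1267 to 1296 RPKM in the shoot libraries.

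Root and shoot of Col-0 at 21 °C were compared by limma on log2(RPKM + 1), a scale that understates changes of genes near 0. A gene was called when its Benjamini-Hochberg adjusted p was under 0.05 and its log2 difference beyond 1. With LTP3 left out, 5 members were tested and 3 were called, all lower in roots, where 14.3% of all 18173 genes tested were called lower. The log2 difference was -6.16 ± 0.09 (SE, adjusted p = 5.3e-31) for LTP1, -6.16 ± 0.11 (adjusted p = 2.7e-29) for LTP5 and -3.54 ± 0.15 (adjusted p = 1.0e-19) for LTP6. LTP2, at -0.98, missed the fold limit but passed it at -1.59 after scaling by the median of ratios, which moved the median of all genes in this comparison from 0.53 to -0.01. LTP3 stood at 1.75 on this scale, and at 1.18 after that scaling.

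LTP4 and LTP12 were at the bottom of the family. LTP12 had 18 reads in the 36 libraries together, at most 4 in any of them, and no read in 26, so its level was at most 0.0526 RPKM in any library and it was tested nowhere. LTP4 was under 1.5 RPKM in all 18 root libraries and passed the filter on low values, a mean of at least 1 RPKM, in shoots but not in roots. Over the 36 libraries it passed only through hy5-215 shoots at 28 °C, so it is also among the 5 members tested between organs. The tests below therefore cover 5 members within roots and 6 within shoots.

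**Figure D1:**
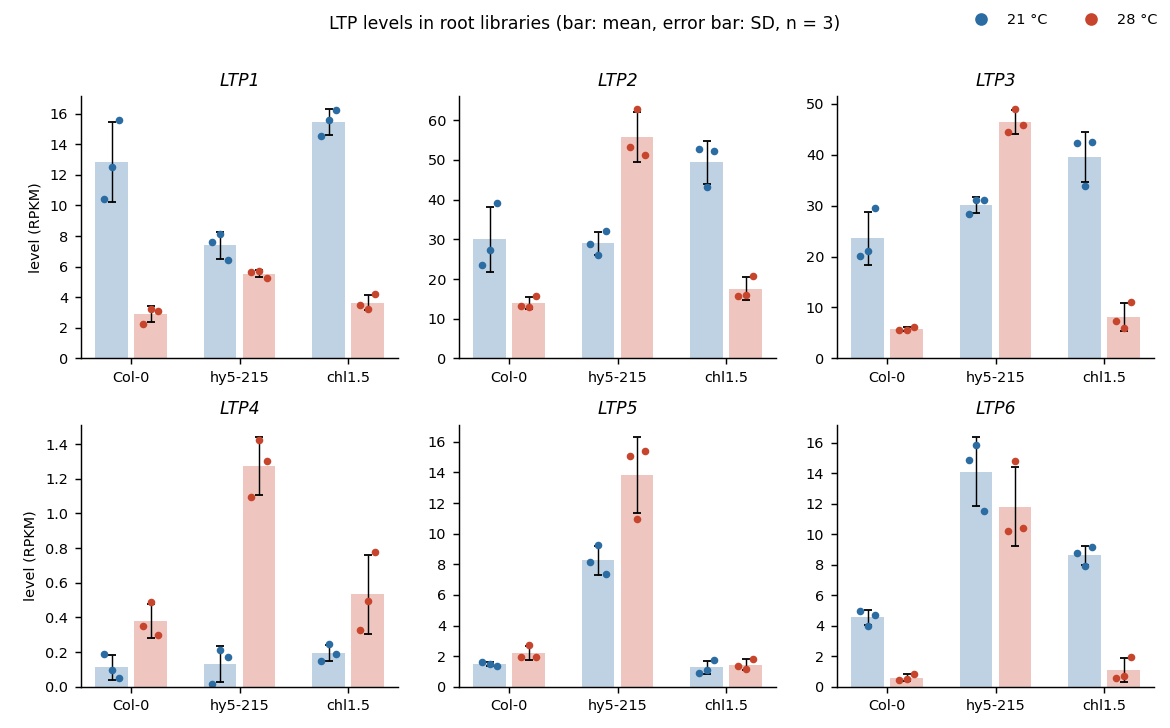
Level of 6 LTP genes in each of the 18 root libraries, in RPKM on a linear axis that differs between panels; bars are means, error bars SDs and points single libraries (n = 3 per group), at 21 °C in blue and 28 °C in red. LTP1, LTP2, LTP3 and LTP6 were lower at 28 °C in every Col-0 and chl1.5 library than in any library of the same genotype at 21 °C, while LTP2 and LTP3 were higher at 28 °C in every hy5-215 library.

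In Col-0 roots, growth at 28 °C lowered LTP1, LTP2 and LTP6 and did not change LTP5 beyond the fold limit. LTP1 was at 10.4, 12.5 and 15.6 RPKM at 21 °C and at 2.27, 3.24 and 3.13 RPKM at 28 °C. LTP6 was at 4.95, 4.02 and 4.73 RPKM and then at 0.417, 0.539 and 0.847 RPKM. For both genes the temperatures were well apart in every library, and the mean level at 28 °C was 22.4% of that at 21 °C for LTP1 and 13.2% for LTP6. LTP2 was at 23.6, 27.2 and 39.3 RPKM at 21 °C and at 13.3, 13 and 15.7 RPKM at 28 °C, also without overlap but with a smaller step.

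On the log2 scale the change was -1.83 ± 0.12 (SE, limma, adjusted p = 5.8e-09) for LTP1, -1.80 ± 0.20 (adjusted p = 9.9e-07) for LTP6 and -1.02 ± 0.15 (adjusted p = 2.5e-05) for LTP2. So 3 of the 4 members tested were called, all lower, where 1.8% of the 17742 genes tested in roots were called lower. LTP2 lay at the fold limit. Without the Col-0 root replicate 3 at 21 °C it was at -0.82, and without replicate 1 or 2 at 28 °C at -0.99 or -0.97, so that it was no longer called although its adjusted p stayed at or under 2.2e-04. LTP5, at 1.33 to 1.63 RPKM and then 1.93 to 2.73 RPKM, had a log2 difference of 0.36 ± 0.15 (adjusted p = 0.0413).

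In Col-0 roots LTP3, the gene that led to the family, was at 20.1, 21.102 and 29.6 RPKM under 21 °C and at 5.59, 5.59 and 6.24 RPKM under 28 °C. In hy5-215 roots it was at 28.298, 31.2 and 31 RPKM at 21 °C and at 44.4, 49.0 and 45.9 RPKM at 28 °C. The temperatures do not overlap within either genotype and stand in opposite order in the 2 genotypes, while the libraries of both genotypes at 21 °C overlap. The log2 difference was -1.84 in Col-0 and 0.61 in hy5-215, a difference of 2.44 between the responses. These are the values for which the gene was picked.

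In hy5-215 roots none of the other 4 members tested fell or rose beyond the fold limit at 28 °C, where 3.2% of all genes did so in either direction. By limma 3 of these 4 had an unadjusted p under 0.05. The same number, 3 of 4, had an adjusted p under 0.05, as had 61% of all genes. Limma voom on recovered reads also called 0. LTP1 was at 7.58, 8.15 and 6.42 RPKM at 21 °C and at 5.66, 5.72 and 5.25 RPKM at 28 °C. LTP6 was at 14.9, 15.9 and 11.5 RPKM and then at 10.2, 14.8 and 10.4 RPKM, with overlapping libraries. The log2 difference was -0.35 ± 0.12 (adjusted p = 0.0218) for LTP1 and -0.24 ± 0.20 (adjusted p = 0.297) for LTP6, each much nearer to 0 than in Col-0.

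LTP2 stood on the other side of 0. In hy5-215 roots it was at 28.8, 26.2 and 32 RPKM at 21 °C and at 53.3, 62.9 and 51.2 RPKM at 28 °C, with every library at 28 °C above every library at 21 °C. The log2 difference was 0.92 ± 0.15 (adjusted p = 9.1e-05), below the fold limit. LTP5, at 7.38 to 9.27 RPKM and then 11 to 15.4 RPKM, had a log2 difference of 0.67 ± 0.15 (adjusted p = 0.00104).

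The direct test of the difference between the 2 responses asks whether a gene's root response to warmth depended on HY5. It was called for LTP1, LTP2 and LTP6, 3 of the 4 members tested, each with a higher response in hy5-215. Among all genes 9.95% were called in that direction. The difference was 1.94 ± 0.22 (SE, limma, adjusted p = 2.4e-05) for LTP2, 1.47 ± 0.17 (adjusted p = 4.2e-05) for LTP1 and 1.56 ± 0.28 (adjusted p = 0.00131) for LTP6. For LTP5 it was 0.31, with a 95% interval of -0.13 to 0.75 (adjusted p = 0.318). The median of these 4 differences, LTP3 left out, was 1.52, against 0.01 over all genes.

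Shoot markers rose in Col-0 and chl1.5 roots, where LTP1, LTP2 and LTP6 fell and LTP5 did not. LTP2 and LTP5 were higher at 28 °C in hy5-215 roots, where the summed marker levels at 21 and 28 °C overlapped. In Col-0 and chl1.5 roots 6 of the 7 shoot markers that passed the filter rose at 28 °C, where 2.42% and 2.66% of all genes were called higher, and none did in hy5-215. RBCS1A, a small subunit of Rubisco, stood in Col-0 roots at 38.9 ± 4.5 RPKM under 21 °C and 221 ± 32 RPKM under 28 °C (SD, n = 3). The part of these markers in the LTP levels was not tested. In whole roots, fewer cells that express a gene and less RNA per cell cannot be told apart.

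**Figure D2:**
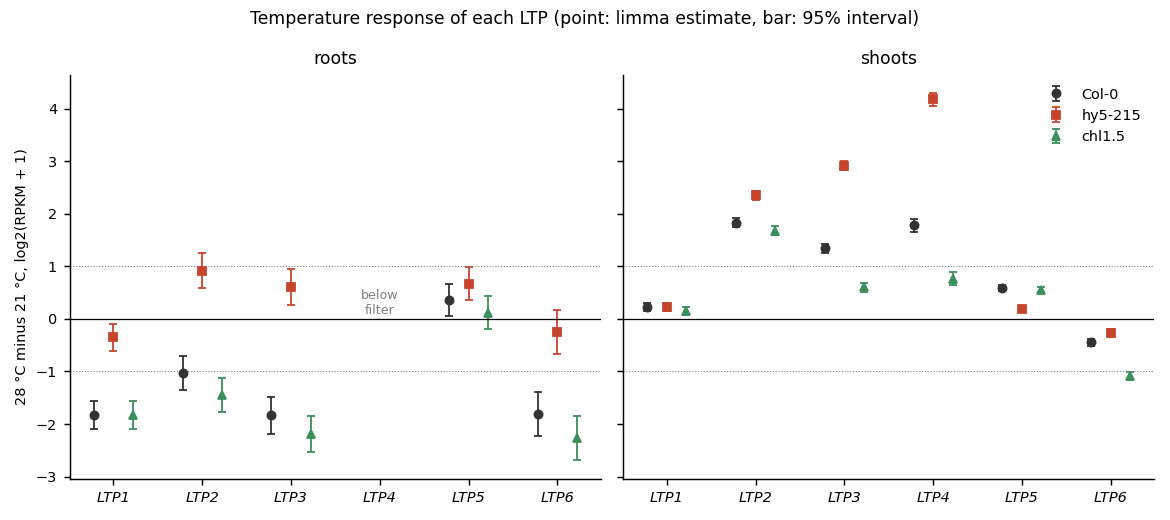
Temperature response of each LTP, 28 °C minus 21 °C on the log2(RPKM + 1) scale, in roots on the left and shoots on the right; points are limma estimates, bars 95% intervals and dotted lines the fold limit of 1. In roots the hy5-215 points lie above those of Col-0 by 1.47 for LTP1, 1.94 for LTP2 and 1.56 for LTP6, and in shoots by 2.40 for LTP4; the shoot libraries labelled chl1.5 go against that label.

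The levels at each temperature show where the genotypes parted. At 21 °C, LTP5 and LTP6 were higher in hy5-215 roots than in Col-0 roots. LTP5 was at 8.15, 9.27 and 7.38 RPKM against 1.63, 1.51 and 1.33 RPKM, a 5.55-fold ratio of the means with no overlap. LTP6 was at 14.9, 15.9 and 11.5 RPKM against 4.95, 4.02 and 4.73 RPKM, a 3.09-fold ratio. These were the 2 members called of 4 tested, with log2 differences of 1.89 ± 0.15 (adjusted p = 4.1e-08) and 1.43 ± 0.20 (adjusted p = 2.6e-05), where 1.3% of all genes were called higher.

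LTP1 and LTP2 were not called at 21 °C. LTP1 was at 7.38 ± 0.88 RPKM in hy5-215 and 12.8 ± 2.6 RPKM in Col-0 (SD, n = 3), a log2 difference of -0.71 (adjusted p = 2.4e-04) that is within the fold limit. LTP2 was at 29 ± 2.9 RPKM and 30.01 ± 8.2 RPKM, with overlapping libraries, and its log2 difference was -0.02 with a 95% interval of -0.35 to 0.30.

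At 28 °C every one of these members was higher in hy5-215 roots, and the 3 past the fold limit of 4 tested were LTP2, LTP5 and LTP6, where 2.22% of all genes were called higher. LTP6 had the widest ratio, 19.6-fold on the means, with a log2 difference of 2.99 ± 0.20 (limma, adjusted p = 3.2e-09). LTP5 followed at 6.25-fold (2.20 ± 0.15, adjusted p = 3.7e-09) and LTP2 at 3.99-fold (1.92 ± 0.15, adjusted p = 3.2e-08). LTP1 was at 5.25 to 5.72 RPKM against 2.27 to 3.24 RPKM, without overlap, and its log2 difference of 0.76 (adjusted p = 8.1e-05) did not reach the fold limit. The ratio of the means was 7.99 for LTP3, given as a description. The hy5-215 comparisons all used the same Col-0 libraries as the chl1.5 comparisons.

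LTP4 had few reads in roots, and its counts are given for that reason. It had 13, 7 and 4 reads in Col-0 roots at 21 °C and 22, 29 and 19 reads at 28 °C. In hy5-215 roots it had 1, 14 and 12 reads at 21 °C and 78, 101 and 88 reads at 28 °C, which is 1.1 to 1.42 RPKM. So the hy5-215 roots at 28 °C stood above all other root libraries, while remaining at a low level. Without the filter the LTP4 response was 1.01 ± 0.10 in hy5-215 roots (limma, adjusted p = 9.2e-07) and 0.31 ± 0.10 in Col-0 roots (adjusted p = 0.0124), and the difference between them was 0.70 ± 0.14 (adjusted p = 0.0032).

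In chl1.5 roots the same members were lower at 28 °C as in Col-0 roots. LTP3, tested here because these libraries did not choose it, was at 42.3, 33.8 and 42.6 RPKM at 21 °C and at 7.29, 5.88 and 11.1 RPKM at 28 °C. LTP6 was at 8.79, 7.90 and 9.15 RPKM and then at 0.553, 0.696 and 1.98 RPKM. Neither gene overlapped between the temperatures. LTP1, LTP2, LTP3 and LTP6 were called lower, 4 of 5 members tested, where 2.68% of all genes were called lower. Their log2 differences were -1.83 ± 0.12 (adjusted p = 3.9e-09), -1.45 ± 0.15 (adjusted p = 5.4e-07), -2.19 ± 0.16 (adjusted p = 1.1e-08) and -2.27 ± 0.20 (adjusted p = 6.5e-08), in that order.

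No difference between the chl1.5 and Col-0 root responses was called for the 4 members tested, where 2.35% of all genes were called in either direction. By limma 0 of them had an unadjusted p under 0.05, and limma voom called 0 as well. The estimates ran from -0.47 for LTP6 (95% interval -1.06 to 0.13) to -0.00 for LTP1 (-0.37 to 0.37), with adjusted p from 0.327 to 0.998. These intervals do not show that the responses were the same.

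The level itself was compared between chl1.5 and Col-0 roots at each temperature, and 0 of 4 members passed both limits at 21 °C or at 28 °C. Among all genes 0.558% and 0.107% were called. At 21 °C limma gave 3 of the 4 an unadjusted p under 0.05, and at 28 °C 2 of the 4. An adjusted p under 0.05 was found for 2 of the 4 at 21 °C and 0 of the 4 at 28 °C. Of all genes 28% at 21 °C and 9.43% at 28 °C had an adjusted p under 0.05, so these counts say little about the members. Limma voom called 0 at either temperature. LTP2 was at 49.4 ± 5.4 RPKM in chl1.5 and 30.01 ± 8.2 RPKM in Col-0 at 21 °C (SD, n = 3; log2 difference 0.73, adjusted p = 0.0029). LTP6 was at 8.61 ± 0.65 RPKM against 4.56 ± 0.49 RPKM (0.79, adjusted p = 0.00835), so that both stood higher in chl1.5 within the fold limit.

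**Figure D3:**
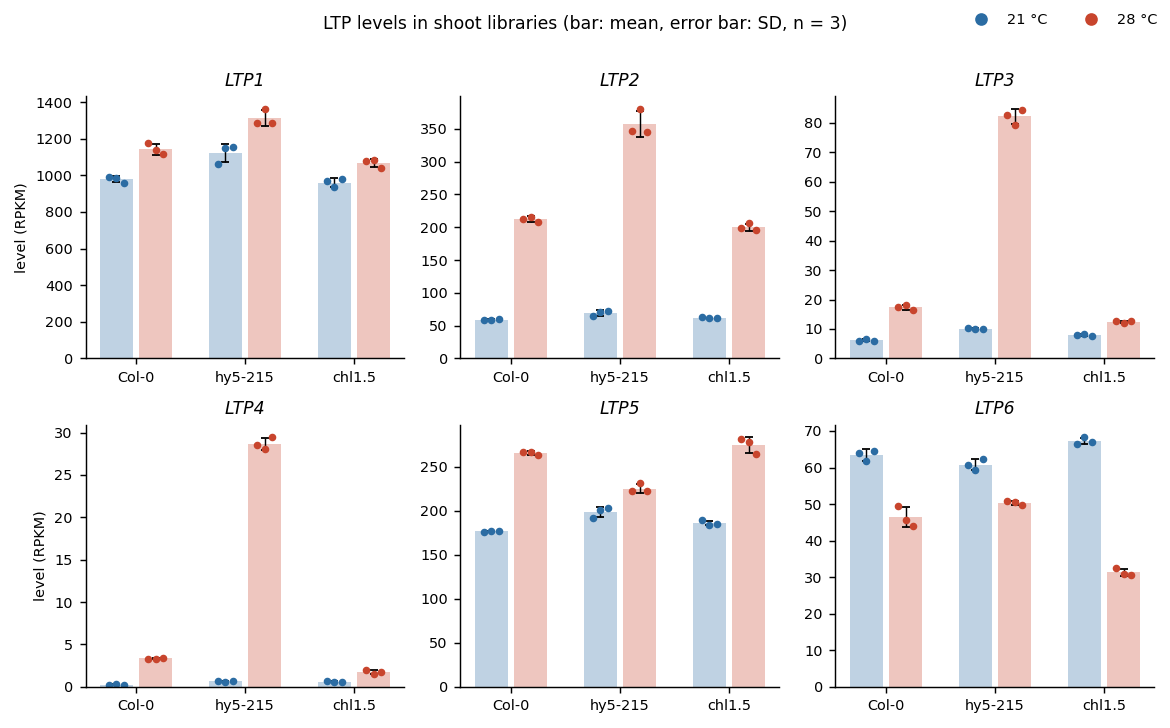
Level of 6 LTP genes in each of the 18 shoot libraries, in RPKM on a linear axis that differs between panels; bars are means, error bars SDs and points single libraries (n = 3 per group), at 21 °C in blue and 28 °C in red. LTP2, LTP3 and LTP4 were higher at 28 °C in all 3 genotypes and LTP6 lower, and LTP4 reached 28.0 to 29.4 RPKM in hy5-215 only; the libraries labelled chl1.5 go against that label.

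In shoots the order of the temperatures turned round for LTP2 and LTP3. Col-0 shoots held LTP2 at 58.5, 58.4 and 59.7 RPKM at 21 °C and at 212, 216 and 208 RPKM at 28 °C, a 3.61-fold ratio of the means. LTP3 was at 6.02, 6.66 and 5.94 RPKM and then at 17.4, 18 and 16.5 RPKM, a 2.79-fold ratio. LTP4 was at 0.256, 0.302 and 0.233 RPKM and then at 3.33, 3.28 and 3.43 RPKM, a 12.7-fold ratio that rests on 18 to 24 reads per library at 21 °C. All 3 genes were higher at 28 °C in every library.

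The log2 differences in Col-0 shoots were 1.83 ± 0.04 for LTP2 (limma, adjusted p = 4.9e-17), 1.78 ± 0.06 for LTP4 (adjusted p = 1.0e-14) and 1.35 ± 0.04 for LTP3 (adjusted p = 3.4e-15). They were the 3 members called of 6 tested, where 3.31% of the 16817 genes tested in shoots were called higher. The other 3 stayed within the fold limit. LTP5 was at 177 ± 0.92 RPKM and 266 ± 1.9 RPKM (SD, n = 3; 0.59, adjusted p = 1.0e-12), LTP1 at 980 ± 18 RPKM and 1144 ± 30 RPKM (0.22, adjusted p = 9.5e-06) and LTP6 at 63.4 ± 1.5 RPKM and 46.3 ± 2.7 RPKM (-0.45, adjusted p = 2.2e-09). Replicate spread was small in shoots, so that 76.9% of all genes had an adjusted p under 0.05 in this comparison.

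The same 3 genes were called in hy5-215 shoots, where 4.23% of all genes were called higher, and with larger steps. LTP4 was at 0.645, 0.538 and 0.730 RPKM at 21 °C and at 28.5, 28.0 and 29.4 RPKM at 28 °C, a 44.9-fold ratio of the means. LTP3 was at 10.3, 9.85 and 10.002 RPKM and then at 82.7, 79.4 and 84.5 RPKM, an 8.18-fold ratio. LTP2 was at 64.1, 71.0 and 71.8 RPKM and then at 346, 381 and 345 RPKM, a 5.18-fold ratio. No library at 28 °C overlapped any at 21 °C for these genes. The log2 differences were 4.18 ± 0.06 for LTP4 (adjusted p = 5.6e-20), 2.91 ± 0.04 for LTP3 (adjusted p = 5.7e-20) and 2.36 ± 0.04 for LTP2 (adjusted p = 1.1e-18).

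The difference between the shoot responses of hy5-215 and Col-0 was called for 5 of 6 members. Since 50.3% of all genes were called in this comparison, that count is described by its sizes. LTP4 had a difference of 2.40 ± 0.08 (SE, limma, adjusted p = 4.1e-13), the second highest among the 16817 genes tested, and LTP3 one of 1.57 ± 0.06 (adjusted p = 9.4e-13). LTP2 followed at 0.52 ± 0.06 (adjusted p = 8.8e-07) and LTP6 at 0.18 (adjusted p = 0.00624). LTP5 had the opposite sign, at -0.41 (adjusted p = 1.1e-07), since it was at 199 ± 6.0 RPKM and 225 ± 5.4 RPKM in hy5-215. LTP1 had a difference of 0.00 with a 95% interval of -0.10 to 0.10.

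At 28 °C the level of LTP4 was 8.56-fold and that of LTP3 4.75-fold higher in hy5-215 than in Col-0 shoots. These were the 2 members called of 6 tested, with log2 differences of 2.77 ± 0.06 (limma, adjusted p = 9.3e-17) and 2.18 ± 0.04 (adjusted p = 1.6e-17), where 1.3% of all genes were called higher. At 21 °C 0 of 6 members were called by limma, where 0.571% of all genes were. An unadjusted p under 0.05 was found for 5 of 6. An adjusted p under 0.05 was also found for 5 of 6, and for 60.3% of all genes. LTP3 was at 9.85 to 10.3 RPKM against 5.94 to 6.66 RPKM there (0.62, adjusted p = 1.2e-09). LTP4 was at 0.538 to 0.730 RPKM against 0.233 to 0.302 RPKM, and it alone was called by limma voom on recovered reads, at 1.25. The HY5 transcript, as given above, was not lower in hy5-215 than in Col-0 shoots at 21 °C, and was lower at 28 °C.

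The shoot libraries labelled chl1.5, whose NRT1.1 level goes against that label, held LTP4 at 0.722, 0.597 and 0.537 RPKM at 21 °C and at 1.97, 1.52 and 1.76 RPKM at 28 °C. LTP3 was at 7.83, 8.14 and 7.70 RPKM and then at 12.6, 12.1 and 12.8 RPKM. Both genes were higher at 28 °C in every library, by less than in the Col-0 shoots. LTP2 rose by 1.68 ± 0.04 on the log2 scale (limma, adjusted p = 1.9e-16) and LTP6 fell by 1.08 ± 0.03 (adjusted p = 1.1e-14), the 2 members called of 6 tested, where 4.74% of all genes were called in either direction. LTP6 was at 66.5, 68.3 and 67.1 RPKM and then at 32.4, 30.8 and 30.6 RPKM.

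Against Col-0, the responses in these shoot libraries differed for LTP4 (-1.02 ± 0.08, adjusted p = 2.5e-08), LTP3 (-0.75 ± 0.06, adjusted p = 1.5e-08), LTP6 (-0.64 ± 0.05, adjusted p = 1.7e-08) and LTP2 (-0.15 ± 0.06, adjusted p = 0.0313). These are 4 of 6 members, in a comparison where 56.3% of all genes were called. The LTP2 call was lost in 6 of the fits that left out 1 library, with adjusted p from 0.0545 to 0.0769, and after scaling by the median of ratios (adjusted p = 0.063). Between the levels, limma called 0 of 6 members at 21 °C and 0 of 6 at 28 °C, where 0.22% and 0.172% of all genes were called. At each temperature 4 of 6 had an unadjusted p under 0.05, and 3 of 6 at 21 °C and 4 of 6 at 28 °C an adjusted one. Of all genes 48.5% at 21 °C and 47.7% at 28 °C had an adjusted p under 0.05. Limma voom on recovered reads called LTP4 at 21 °C, at 1.22, and 0 members at 28 °C.

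Roots and shoots of Col-0 differed in their response to temperature for LTP1, LTP2, LTP4 and LTP6, each more negative in roots. These are 4 of 5 members tested, where 32.4% of all genes were called lower. LTP4 averaged 3.16 RPKM over the 36 libraries but 0.84 RPKM without hy5-215 shoots at 28 °C. Its call therefore adds no support to that count. The difference was -2.85 ± 0.17 for LTP2 (limma, adjusted p = 1.5e-14), the gene that fell in Col-0 roots and rose in Col-0 shoots, and -2.05 ± 0.13 for LTP1 (adjusted p = 1.8e-13). It was -1.47 ± 0.12 for LTP4 (adjusted p = 9.8e-12) and -1.36 ± 0.21 for LTP6 (adjusted p = 2.9e-06). For LTP5 it was -0.23 (adjusted p = 0.209). LTP3 stood at -3.18, with no test.

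In hy5-215 the same difference was -3.17 ± 0.12 for LTP4 (adjusted p = 1.6e-19), -1.44 ± 0.17 for LTP2 (adjusted p = 1.7e-08), -0.58 ± 0.13 for LTP1 (adjusted p = 4.7e-04) and 0.49 ± 0.16 for LTP5 (adjusted p = 0.00787). These are 4 of 5 members, where 62.3% of all genes were called in either direction. LTP6 was at 0.02 with a 95% interval of -0.41 to 0.46, and LTP3 at -2.31 with no test. LTP4 passed the filter over the 36 libraries only through its level in hy5-215 shoots at 28 °C, so its calls between organs add no support to the counts.

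**Figure D4:**
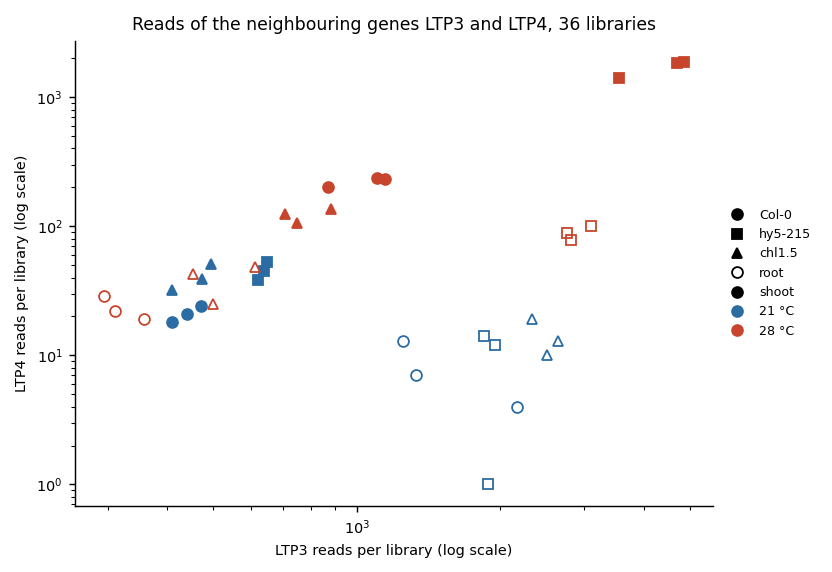
Reads of LTP4 against reads of its neighbour LTP3 in each of the 36 libraries, on log axes; shapes mark the genotype, open points roots, filled points shoots, blue 21 °C and red 28 °C. LTP4 had 1 to 19 reads in the root libraries at 21 °C beside 1250 to 2644 reads of LTP3, and 1407 to 1874 reads beside 3554 to 4847 in hy5-215 shoots at 28 °C.

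LTP3 and LTP4 are adjacent genes of close sequence, so their read counts were set side by side in each library. The 21 °C hy5-215 root library of replicate 1 had 1887 reads of LTP3 and 1 read of LTP4, which is 0.0530%. Replicates 2 and 3 of that group had 14 and 12 reads of LTP4, which is 0.758% and 0.616%. In hy5-215 shoots at 28 °C LTP4 had 38.7% to 39.6% as many reads as LTP3. Single libraries thus ran from 0.0530%, a value that rests on 1 read of LTP4, to 39.6%, while LTP3 was well covered in each library. How reads that fit both genes were counted is not given in the sources used here. Whether reads of one gene were counted for the other was not tested. Over the 6 shoot groups the group means of the pair had a Pearson correlation of 0.995 on the log2 scale, and over the 6 root groups one of 0.107.

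Among the other pairs, LTP2 and LTP3 had a correlation of 0.964 over the 6 root groups and LTP3 and LTP6 one of 0.958. Over all 12 groups LTP1 and LTP5 were at 0.948, and LTP1 and LTP3 at -0.10. These values describe group means that share libraries, depth and the large step between organs. The root groups also include those by which LTP3 was picked. Each correlation with LTP3 that uses root groups is therefore a description only.

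The order of the groups differed between members. LTP3 was highest in hy5-215 shoots at 28 °C, at 82.2 ± 2.6 RPKM (SD, n = 3), then in hy5-215 roots at 28 °C, at 46.4 ± 2.4 RPKM, and in chl1.5 roots at 21 °C, at 39.5 ± 5.0 RPKM. Neighbours in that order did not overlap down to hy5-215 roots at 21 °C, whose libraries overlapped those of Col-0 roots at 21 °C. Col-0 roots at 28 °C came last, at 5.81 ± 0.38 RPKM, and overlapped Col-0 shoots at 21 °C. LTP1 ran instead from 1312 ± 44.5 RPKM in hy5-215 shoots at 28 °C to 2.88 ± 0.53 RPKM in Col-0 roots at 28 °C, with all 6 shoot groups above all 6 root groups. LTP2, LTP5 and LTP6 also had all shoot groups above all root groups by their means. For LTP6 the lowest shoot group, that labelled chl1.5 at 28 °C, did not overlap the highest root group, hy5-215 at 21 °C. For LTP2 the lowest shoot group, Col-0 at 21 °C, overlapped the highest root group, hy5-215 at 28 °C.

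Over the 12 group means, and among the 12496 genes that averaged 5 RPKM or more, the genes most like LTP3 by Pearson correlation on the log2 scale were AT1G49740 (0.873), ATAF1 (0.872), AT5G02230 (0.872), AT4G31000 (0.868) and AT4G21910 (0.859). ATAF1 encodes a NAC transcription factor of the ABA and drought response. Of these 5 genes, 3 were among the first 5 by Spearman correlation, where ATAF1 ranked 15. In hy5-215 roots warmth lowered the ATAF1 mean from 54.0 to 46.6 RPKM, whereas that of LTP3 rose from 30.2 to 46.4 RPKM. The means of AT1G49740, AT5G02230 and AT4G21910 rose there too, and that of AT4G31000 fell slightly. Since the root groups include those by which LTP3 was picked, this ranking is a description only. The genes most like LTP1 were AT1G29670 (0.998), KCS9 (0.995), AT5G01075 (0.995), XTH7 (0.995) and NPC6 (0.994). KCS9 is an elongase of very-long-chain fatty acids and XTH7 belongs to the enzymes that remodel xyloglucan in the wall. None of these 5 was among the first 5 by Spearman correlation, and all the group means correlated here carry the large step between root and shoot.

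**Figure D5:**
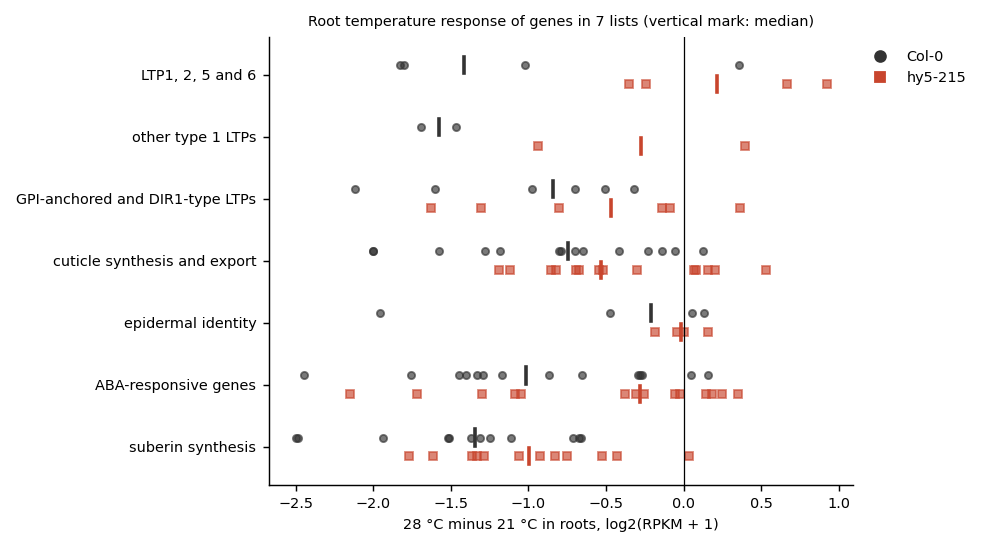
Root temperature response, 28 °C minus 21 °C on the log2(RPKM + 1) scale, of the genes past the filter in 7 lists, with Col-0 in black circles, hy5-215 in red squares and the list's median as a vertical mark; LTP3, picked by these responses, is left out. The median of the 4 other LTP genes was -1.41 in Col-0 and 0.21 in hy5-215, and that of 12 suberin genes -1.34 and -0.99.

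The other LTPs of the same type gave 2 genes past the filter in roots, LTP8 and LTP10, out of 6 with values. Both fell in Col-0 roots at 28 °C, LTP10 from 15 ± 2.6 to 3.90 ± 0.27 RPKM and LTP8 from 51.3 ± 7.3 to 18.1 ± 3.5 RPKM (SD, n = 3). In hy5-215 roots LTP10 was at 59.2 ± 3.0 and 78.2 ± 2.8 RPKM, and its response differed from that of Col-0 by 2.09 ± 0.29 (limma, adjusted p = 1.8e-04). LTP8 was at 36.7 ± 8.6 and 18.4 ± 2.1 RPKM there, and its difference of 0.52 did not pass (adjusted p = 0.189).

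In the shoots LTP10 went the other way from LTP3 and LTP4. It was at 5.51 ± 0.21 and 6.18 ± 0.67 RPKM in Col-0 and fell from 15.7 ± 0.84 to 5.50 ± 0.25 RPKM in hy5-215, a difference between the responses of -1.50 ± 0.08 (adjusted p = 1.1e-10). The rise in hy5-215 shoots was thus not shared by every LTP.

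In a list of LTPs that carry a lipid anchor, LTPs of the DIR1 type and related proteins, 6 of 11 genes passed the filter in roots. EARLI1, a cold-regulated gene, and AZI1, which acts in systemic immunity, fell in Col-0 roots and also in hy5-215 roots. LTPG1, which acts in wax export, had a higher response in hy5-215 than in Col-0 roots (0.89 ± 0.13, adjusted p = 2.1e-04), as did LTPG2 and LTPG6, while LTPG5 had a lower one (-0.48 ± 0.13, adjusted p = 0.0176). These are 3 higher and 1 lower of 6, where 9.95% and 10.4% of all genes were called. In the shoots 3 of 8 genes of this list had a higher response in hy5-215 than in Col-0 and 4 a lower one, with a median difference of -0.19, where 27.4% and 22.8% of all genes were called. EARLI1 was among the higher and LTPG5 (-1.15 ± 0.10, adjusted p = 9.4e-08) among the lower. In shoots EARLI1 was at 16.8 ± 0.61 and 25.6 ± 1.8 RPKM in Col-0. In hy5-215 it rose from 13.4 ± 0.44 to 107 ± 2.9 RPKM, a difference of 2.33 ± 0.06 (adjusted p = 1.2e-14).

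The genes of cuticle synthesis and export and of suberin synthesis also fell in Col-0 roots at 28 °C, 5 of 14 and 9 of 12 that passed the filter, with none called higher, where 1.8% of all genes were called lower. CYP86A1, the fatty acid hydroxylase of root suberin, went from 77.4 ± 2.7 to 12.9 ± 2.0 RPKM, and FAR4, which makes suberin alcohols, from 10.4 ± 1.1 to 3.04 ± 0.61 RPKM (SD, n = 3). In hy5-215 roots CYP86A1 still fell, from 48.3 ± 6.4 to 15.4 ± 4.0 RPKM. Of the suberin list 7 of 12 had a higher response in hy5-215 and none a lower one, and of the cuticle list 7 of 14 and none, where 9.95% of all genes were called higher and 10.4% lower. The median difference was 0.40 for suberin and 0.36 for cuticle genes.

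PDF1, a marker of the shoot epidermis, was the only one of 4 epidermal genes past the filter in roots to be called. It went from 12.7 ± 2.1 to 2.54 ± 0.58 RPKM in Col-0 roots and stood at 35.6 ± 3.1 and 34.5 ± 0.93 RPKM in hy5-215 roots. The difference between the responses was 1.92 ± 0.21 (limma, adjusted p = 2.3e-05). FDH, ANL2 and GL2, the others of that list, differed by 0.29, -0.05 and 0.03 and were not called.

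Genes of the ABA response fell in Col-0 roots at 28 °C in 7 of 14 cases and in hy5-215 roots in 5 of 14, where 1.8% and 1.26% of all genes were called lower. RD22, a dehydration-responsive gene, went from 4.15 ± 1.3 to 1.25 ± 0.23 RPKM in Col-0 roots and was at 4.84 ± 0.44 and 5.64 ± 0.59 RPKM in hy5-215 roots, a difference of 1.36 ± 0.20 (adjusted p = 3.2e-04). NCED3, which makes the key cut in ABA synthesis, had a difference of 0.96 ± 0.24 (adjusted p = 0.012). RD29A, a drought and cold gene, was called lower in both genotypes, and its difference of 0.67 was not called (adjusted p = 0.0996).

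In shoots 13 of 17 ABA genes had a higher response in hy5-215 than in Col-0 and 2 a lower one, where 27.4% of all genes were called higher and 22.8% lower. RD29A was at 11.5 ± 0.34 and 5.93 ± 0.42 RPKM in Col-0 and at 11.8 ± 0.29 and 13.9 ± 0.69 RPKM in hy5-215 shoots, a difference of 1.08 ± 0.06 (adjusted p = 3.2e-10). NCED3 had one of 1.31 ± 0.07 (adjusted p = 1.1e-10). The median of the list was 0.51, against 0.35 over the 6 LTP members tested in shoots and 0.00 over all genes.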

How the data were processed

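One matrix was used. Its values are RPKM per gene, made by the authors from reads aligned to TAIR10 with STAR 2.7.0a, and the submitters' processing notes also name edgeR 3.36.0. The counting tool and annotation release are not given in the sources used here. Values were compared on the log2(RPKM + 1) scale, computed here from the deposited RPKM.

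Whole reads were recovered from the RPKM with the gene length of the RefSeq table of TAIR10.1 (at least 99.9954% of values whole within 0.01 in every library). They gave the depth and served as input to limma voom, an alternative chosen after seeing the data.

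The members and gene lists were chosen with earlier results of these data known. For each organ, limma 3.58.1 (R 4.3.3) fitted 6 group means to 18 libraries, with a trended prior, over genes that averaged 1 RPKM or more in these libraries. Comparisons between organs used all 36 libraries. P-values were Benjamini-Hochberg adjusted over all genes of a fit. A gene was called at an adjusted p under 0.05 and a log2 fold change beyond 1, and a difference between responses at an adjusted p under 0.05. The fit was tested on simulated data.

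Named genes were all 7 members, HY5, NRT1.1, a shoot marker, at most 4 genes per list with the largest difference between the hy5-215 and Col-0 root responses, LTPs of the same type past the filter, and the 5 genes most like LTP3 or LTP1. AZI1 is named outside that rule, after its values were seen. Replicates are separate pools or samples, and p-values measure the spread between them. Replicate pairs of a group differed by 2.41 to 9.29 times the sampling noise in roots and 1.65 to 4.96 times in shoots, so no library was counted as a copy.

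The alternatives were a pseudocount of 0.1, no filter, a filter of 5 RPKM, median of ratios scaling, a replicate block, only the compared groups, any fold change, and leaving out each replicate.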

Additional observations from a re-analysis of the deposited data

Results flagged for a closer look

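The temperature response of a member differed between genotypes or organs in 20 tested cases, each given as the difference in log2(RPKM + 1) with limma's test. In roots, hy5-215 minus Col-0 was 1.47 for LTP1, 1.94 for LTP2 and 1.56 for LTP6. In shoots, hy5-215 minus Col-0 was 2.40 for LTP4, 1.57 for LTP3, 0.52 for LTP2, 0.18 for LTP6 and -0.41 for LTP5. In the shoot libraries labelled chl1.5, whose NRT1.1 level goes against the label, minus Col-0 it was -1.02 for LTP4, -0.75 for LTP3, -0.64 for LTP6 and -0.15 for LTP2. Root minus shoot in Col-0 was -2.85 for LTP2, -2.05 for LTP1, -1.47 for LTP4 and -1.36 for LTP6. Root minus shoot in hy5-215 was -3.17 for LTP4, -1.44 for LTP2, -0.58 for LTP1 and 0.49 for LTP5. LTP4 passed the filter over the 36 libraries only through its level in hy5-215 shoots at 28 °C. Its root minus shoot cases in Col-0 and hy5-215 therefore add no support.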

How the results depend on the processing

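No direction that was called turned round under any alternative, and fitting only the compared groups, which keeps the shoot libraries labelled chl1.5 out of the hy5-215 fits, changed no count. Counts of members called moved with the fold limit. With any fold change they were 3 for the temperature response of hy5-215 roots, 2 for chl1.5 against Col-0 roots at 21 °C, 6 for each of the 3 shoot temperature responses, 5 and 6 for hy5-215 against Col-0 shoots at 21 and 28 °C, 3 and 4 for the shoot libraries labelled chl1.5 against Col-0, and 5 for root against shoot. The shares of all genes with an adjusted p under 0.05 there were, in that order, 61%, 28% (5021 of 17742), 76.9 to 78.3%, 60.3% and 56.1%, 48.5% and 47.7%, and 92.9%, so that these counts say little about the members. Smaller moves were from 3 to 4 for Col-0 roots, and for hy5-215 against Col-0 roots from 2 to 3 at 21 °C and 3 to 4 at 28 °C. Of all genes 66.3%, 43.6% and 55% had an adjusted p under 0.05 in these comparisons. With a pseudocount of 0.1 or limma voom hy5-215 against Col-0 shoots at 21 °C called 1 member in place of 0, and voom called 1 for chl1.5 against Col-0 shoots at 21 °C. Without the filter hy5-215 roots called 1 (LTP4) and the hy5-215 minus Col-0 root difference 4 in place of 3. A filter of 5 RPKM gave 1 in place of 2 for hy5-215 against Col-0 roots at 21 °C, 2 in place of 3 at 28 °C, and 3 in place of 4 for root minus shoot in Col-0 and in hy5-215.

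Leaving out 1 replicate gave 2 to 3 members for Col-0 roots, 3 to 4 for root against shoot and 3 to 4 for the chl1.5 minus Col-0 shoot difference, and the main count elsewhere. Same-numbered samples were checked for pairing by the correlation of their deviations from the group means, which would have to exceed 0.1 in every pair. It did so in 6 of 9 root pairs and 5 of 9 shoot pairs, but in all 3 pairs of hy5-215 roots (0.137 to 0.208), the one genotype and organ where the numbers meet that limit. With the replicate block the count was the same in every comparison, for example 0 for hy5-215 roots, 3 for the hy5-215 minus Col-0 root difference and 3 for Col-0 roots. Depth limits LTP4 in roots and LTP12 everywhere.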
